A study of Mus musculus with 12 samples.

Results

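The 38 genes described here mark T cells and natural killer (NK) cells, or the states these lymphocytes can take. They were chosen by symbol, and all 38 were found among the 40213 gene symbols listed for each library. The choice of these genes and of the related lists was made with earlier results of these data known. The shares over all genes given beside their counts are therefore a description and not an independent test. Kidney RNA of C57BL/6 mice was sequenced in bulk, with 4 libraries in each of 3 groups. Control mice received saline by intraperitoneal injection and a normal diet. Mice with adenine-induced chronic kidney disease (CKD) received saline and a diet labelled 2% adenine. The third group received adenine and intraperitoneal colchicine, 0.3 mg/kg daily, and its replicates 1, 2, 3 and 4 are labelled 2, 3, 4 and 5% adenine. Colchicine and the labelled adenine percentage therefore cannot be told apart in replicates 2, 3 and 4. The series' design text names a single adenine model without percentages, and the sources used here do not settle whether these labels give the diets as fed. Neither age nor length of feeding is stated in the labels. The labels speak of biological replicates but tie no library to an animal, and the p-values reflect only how much these samples vary.

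T cells recognise peptides on MHC molecules through a receptor that signals through the CD3 chains, the zeta chain and the kinases LCK and ZAP70. Helper T cells carry CD4 and cytotoxic T cells carry CD8, while regulatory T cells are defined by the transcription factor FOXP3 and restrain other lymphocytes. Checkpoint receptors such as PD-1, CTLA-4, LAG-3 and TIGIT dampen a T cell after activation, and NK cells kill without a T cell receptor by releasing perforin and granzymes. In tubulointerstitial disease T cells are known to gather between the tubules together with macrophages.

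Library totals ranged from 22200909 to 38253100 counts. The 38 genes together took between 559 and 745 counts in a control library, 5620 to 7049 in a CKD library and 5366 to 8620 with colchicine. Levels are given in CPM, which is counts in each 1000000 of the library total after TMM scaling. Mitochondrially encoded transcripts took 41.5 to 46.7% of the counts in control against 14.6 to 21.8% in the adenine groups, and the TMM factors ran from 0.586 to 0.646 in control and from 1.205 to 1.315 in the adenine groups. Kidney markers were present: Slc34a1 of the proximal tubule averaged 4710 CPM and Umod of the loop of Henle 1380 CPM in control. The 8 T cell markers Cd3d, Cd3e, Cd3g, Cd247, Cd2, Cd5, Cd6 and Lck held counts in each of the 12 libraries. So did the NK markers Ncr1, Eomes, Nkg7, Klrb1c and Klrd1, at 1 to 36 counts. In whole tissue, a change in the number of cells of a type and a change in RNA per cell cannot be told apart.

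The comparison of CKD with control asks which lymphocyte genes differed in adenine-fed kidneys. Il7r, the interleukin 7 receptor chain that maintains T cells and innate lymphocytes, rose from 0.324 ± 0.153 to 18.4 ± 3.22 CPM (SD, n = 4). Cd4 rose from 1.59 ± 0.362 to 13 ± 3.04 CPM, and Foxp3 from 0.324 ± 0.0668 to 4.13 ± 1.4 CPM. The chains of the cytotoxic coreceptor rose from 1.21 ± 0.39 to 2.03 ± 0.248 CPM for Cd8a and from 0.231 ± 0.17 to 0.948 ± 0.27 CPM for Cd8b1. Of 6 tested NK and cytotoxic genes Klrb1b and Klrk1 rose, and Nkg7, Gzmb, Eomes and Tbx21 did not pass the test. With edgeR (quasi-likelihood test, adjusted p under 0.05), 29 of the 35 members that passed the low-count filter rose and 1 fell. Among all 17841 genes tested, 34.1% rose and 33.4% fell. The median log2 fold change over the 35 was 1.97, against 0.04 over all genes tested. The groups did not overlap for 29 members that were higher, against 33.2% of all genes, and for 1 that was lower, against 33.0%. Of the 35, 13 reached the count minimum of the filter in no control library and entered only through the adenine groups, and 9 of these rose, so the count over the tested members is in part set by the filter. Of the 22 that reached the minimum in at least 1 control library, 20 rose. The filter asks for the minimum in as many libraries as a group holds. Some of the 22 therefore also needed the adenine groups to pass, such as Cd28 with 8, 1, 11 and 5 control counts. The count of 20 is thus not free of the filter. With no filter, all 38 were tested, and 29 rose and 1 fell.

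**Figure D1:**
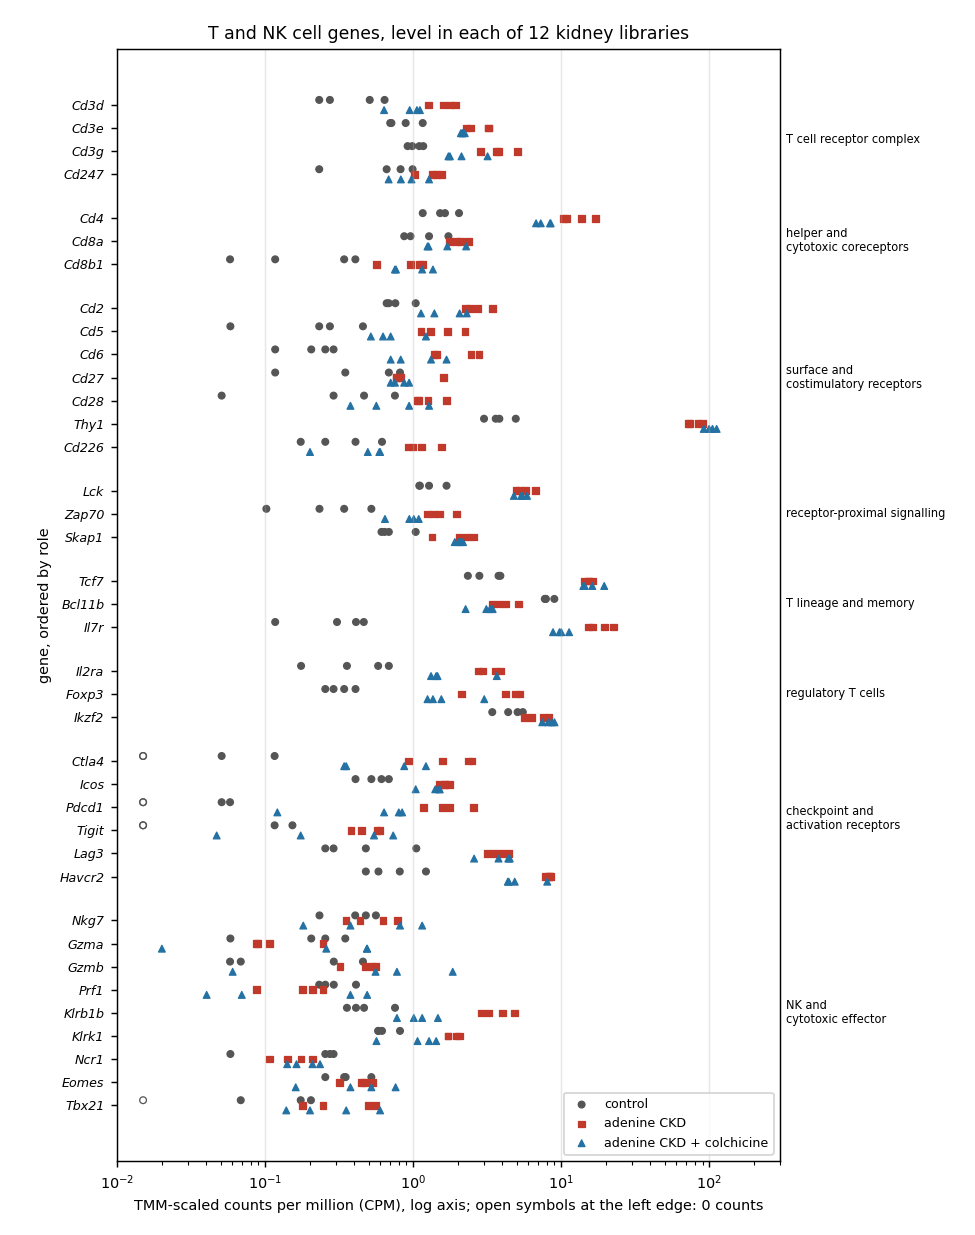
Level of each of the 38 genes in each library, as TMM-scaled CPM on a log axis, ordered by role; open symbols at the left edge are libraries with 0 counts. CKD points lie to the right of all control points for most T cell genes, while the points of Gzma, Prf1, Ncr1 and Eomes overlap between the groups.

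**Figure D2:**
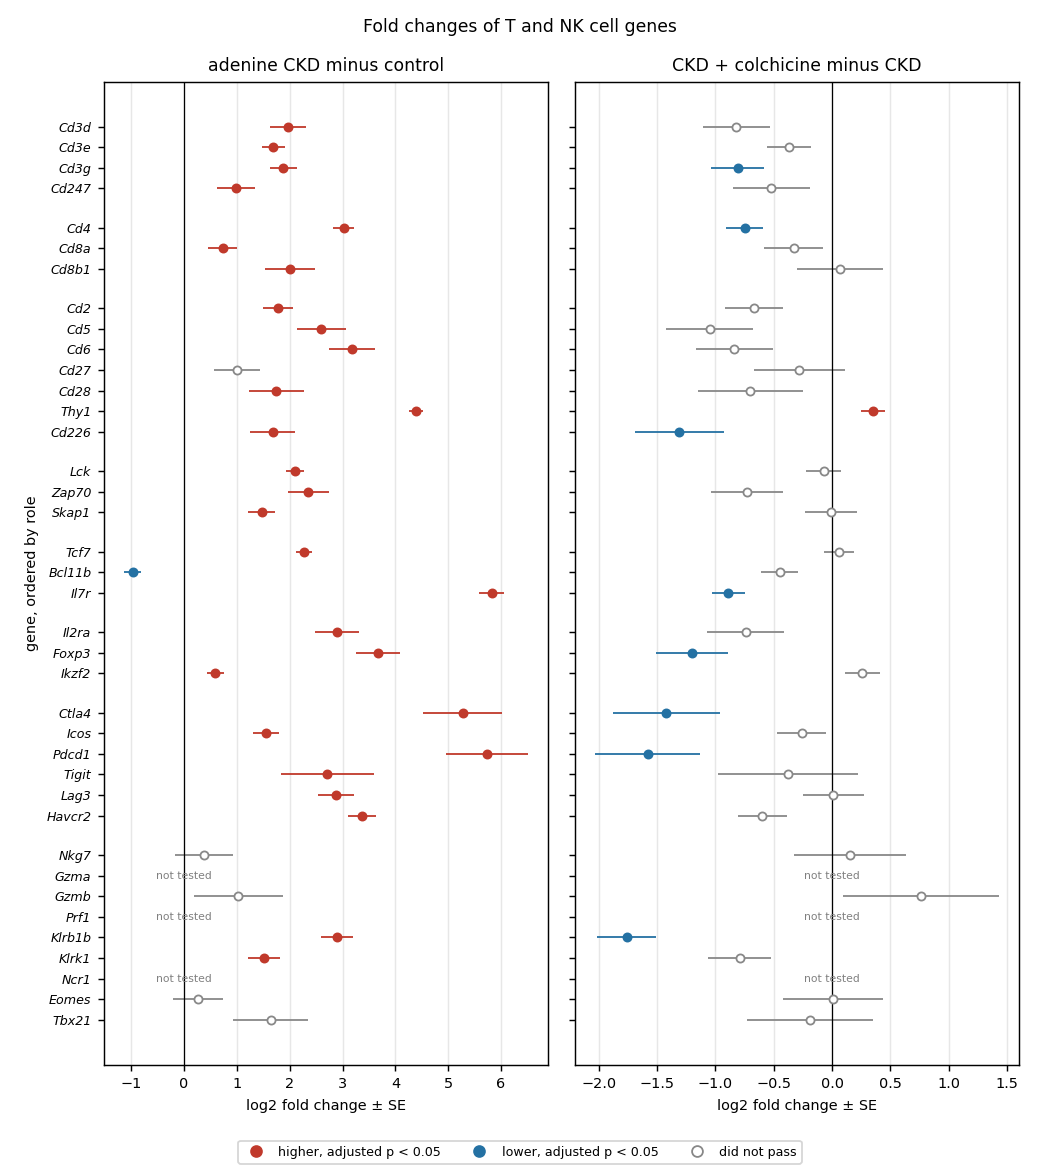
Log2 fold change with its standard error for each tested gene in CKD against control (left) and in colchicine against CKD (right); filled points passed an adjusted p of 0.05. In the left panel 29 genes rose and Bcl11b fell, and in the right panel 8 were lower and Thy1 was higher.

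The members with the largest log2 fold changes were Il7r, Pdcd1 and Ctla4, and all 3 were also lower with colchicine than in CKD. Their promoter windows are printed here beside that of Gzmb, a granzyme gene that passed in neither comparison. The change of Gzmb in CKD was imprecise, at 1.03 ± 0.84 on the log2 scale, so Gzmb is not shown to be unchanged. The windows run 5′ to 3′ on the gene's strand, from 250 bases before to 50 after the RefSeq start, on GRCm38.p6, which is not the GRCm39 build named in the submitters' processing notes. Capitals mark 2 motifs searched on both strands, the RUNX core TGTGGT and the ETS core AGGAAG, in either orientation. The matches of the 2 motifs did not overlap in these windows.
Il7r chr15:9529827-9530126 (-): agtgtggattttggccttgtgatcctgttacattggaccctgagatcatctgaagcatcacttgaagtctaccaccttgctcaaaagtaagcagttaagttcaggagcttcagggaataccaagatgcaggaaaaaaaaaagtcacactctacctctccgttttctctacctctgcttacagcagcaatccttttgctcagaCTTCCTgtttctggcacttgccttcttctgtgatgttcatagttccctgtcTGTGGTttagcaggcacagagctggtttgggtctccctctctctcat
Pdcd1 chr1:94052504-94052803 (-): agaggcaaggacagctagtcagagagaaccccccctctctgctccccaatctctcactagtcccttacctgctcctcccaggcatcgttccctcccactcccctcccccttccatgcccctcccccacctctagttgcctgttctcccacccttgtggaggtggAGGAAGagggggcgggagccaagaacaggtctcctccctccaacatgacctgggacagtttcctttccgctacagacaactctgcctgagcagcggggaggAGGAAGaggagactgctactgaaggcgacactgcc
Ctla4 chr1:60908775-60909074 (+): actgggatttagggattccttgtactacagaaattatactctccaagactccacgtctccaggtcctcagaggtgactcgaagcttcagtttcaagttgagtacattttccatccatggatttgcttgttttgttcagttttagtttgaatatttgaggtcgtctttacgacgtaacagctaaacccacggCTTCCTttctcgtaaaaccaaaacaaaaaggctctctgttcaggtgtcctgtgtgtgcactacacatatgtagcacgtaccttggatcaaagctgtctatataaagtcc
Gzmb chr14:56262285-56262584 (-): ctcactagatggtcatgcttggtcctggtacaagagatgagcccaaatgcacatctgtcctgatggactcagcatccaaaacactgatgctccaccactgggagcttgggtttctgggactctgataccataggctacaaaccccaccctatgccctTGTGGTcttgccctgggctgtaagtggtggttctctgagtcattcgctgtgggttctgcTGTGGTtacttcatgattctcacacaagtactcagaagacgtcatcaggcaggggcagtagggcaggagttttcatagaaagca
The Il7r window held 1 RUNX and 1 ETS match, the Pdcd1 window 2 ETS matches, the Ctla4 window 1 ETS match and the Gzmb window 2 RUNX matches. Of 32851 promoter windows of 300 bases, 16.8% held the RUNX letters and 35.4% the ETS letters. Windows were found for 27 of the 38 members, 34 windows in all, of which 35.3% held the RUNX letters and 58.8% the ETS letters. A match is a description of the letters and does not show a bound site.

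All 4 genes of the T cell receptor complex rose in CKD. Cd3e, whose product pairs with the delta and gamma chains, stood at 0.7, 0.713, 0.89 and 1.16 CPM in the control libraries, 2.43, 3.21, 2.29 and 3.24 CPM in CKD and 2.23, 2.1, 2.14 and 2.16 CPM with colchicine. Every CKD library lay above every control library, and the log2 fold change was 1.69 ± 0.22 (SE). Cd3g, the gamma chain, stood at 1.17, 0.917, 1.1 and 0.986 CPM in the control libraries, 3.66, 5.09, 2.86 and 3.77 CPM in CKD and 3.18, 1.77, 1.73 and 2.12 CPM with colchicine. Its CKD libraries were all above control, by 1.88 ± 0.26 on the log2 scale. Cd3d, the delta chain, stood at 0.641, 0.509, 0.274 and 0.232 CPM in the control libraries, 1.27, 1.78, 1.93 and 1.61 CPM in CKD and 1.06, 0.636, 0.947 and 1.11 CPM with colchicine, with no overlap between CKD and control and a log2 fold change of 1.97 ± 0.34. Cd247, the zeta chain that NK cells also use, stood at 0.991, 0.662, 0.822 and 0.232 CPM in the control libraries, 1.44, 1.35, 1.55 and 1.02 CPM in CKD and 1.28, 0.683, 0.826 and 0.974 CPM with colchicine. It changed least of the 4, by 0.99 ± 0.36 on the log2 scale (edgeR adjusted p = 0.0238). The call of Cd247 was lost without control replicate 2 or 4 or CKD replicate 1 or 3 (edgeR adjusted p between 0.0501 and 0.061).

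All 3 coreceptor genes rose. Cd4 stood at 1.52, 2.04, 1.64 and 1.16 CPM in the control libraries, 10.4, 17, 10.8 and 13.7 CPM in CKD and 8.48, 6.76, 8.4 and 7.27 CPM with colchicine, so CKD and control were far apart, with a log2 fold change of 3.02 ± 0.2. Some dendritic cells carry CD4 as well, and dendritic cell markers rose too, as given further on, so the part of T cells in this change was not tested. Cd8a stood at 1.28, 1.73, 0.959 and 0.87 CPM in the control libraries, 2.08, 2.35, 1.76 and 1.96 CPM in CKD and 2.28, 1.27, 1.25 and 1.7 CPM with colchicine. Its CKD libraries lay just above control, by 0.73 ± 0.27 on the log2 scale (edgeR adjusted p = 0.0267), and the call was lost without control replicate 3 or 4 or CKD replicate 1 or 2 (adjusted p between 0.051 and 0.0827). Cd8b1, the beta chain found on conventional cytotoxic T cells, stood at 0.117, 0.407, 0.342 and 0.058 CPM in the control libraries, 0.563, 1.1, 1.16 and 0.964 CPM in CKD and 1.36, 0.753, 0.765 and 1.15 CPM with colchicine. Control held 1 to 8 counts of Cd8b1 per library, and the log2 fold change was 2.01 ± 0.47.

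The ratio of 2 genes within a library does not depend on how libraries are scaled, and 5 such ratios were compared in each of the 3 comparisons, 15 tests in all. The log2 ratio of Cd8a to Cd4 counts was -0.41 ± 0.25 in control and -2.64 ± 0.24 in CKD (SD, n = 4), a difference of -2.24. The 2 groups did not overlap, and the exact two-sided permutation p was 0.0286, the smallest that 4 against 4 libraries allow. Adjusted over the 15 tests it was 0.0714, so the difference did not pass the correction, as holds for each ratio at the smallest p. Passing would have needed most of the 15 tests to reach that smallest p. For the ratios at it, not passing was therefore largely set by the number of libraries. The ratio of Foxp3 to Cd3e was 1.83 higher in CKD than in control, at 0.5 ± 0.75 against -1.33 ± 0.48, and that of Pdcd1 to Cd3e was 3.42 higher, at -0.69 ± 0.52 against -4.11 ± 0.71. Control libraries held 0 or 1 Pdcd1 counts, so the control value of that ratio is set by the 0.5 added to each count, and with 2 added the difference was 2.07. The ratio of Ncr1, an NK receptor, to Cd3e was lower in CKD, by -2.04, at -4.03 ± 0.54 against -1.99 ± 0.74. For these 3 ratios too the groups did not overlap (exact permutation p = 0.0286, adjusted 0.0714). Ncr1 held 1 to 10 counts per library and was left out by the filter, so its ratio describes Ncr1 and not NK cells as a whole. Of the other NK markers, Klrb1c and Klrd1 rose by 1.63 ± 0.5 and 1.75 ± 0.35 on the log2 scale, against 1.69 ± 0.22 for Cd3e. Nkg7 and Eomes did not pass, at 0.38 ± 0.54 and 0.27 ± 0.47. The ratio of Gzmb to Cd3e was -2.54 ± 0.5 in CKD and -2.18 ± 1.52 in control, and the groups overlapped (exact permutation p = 0.629, adjusted 0.725).

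**Figure D3:**
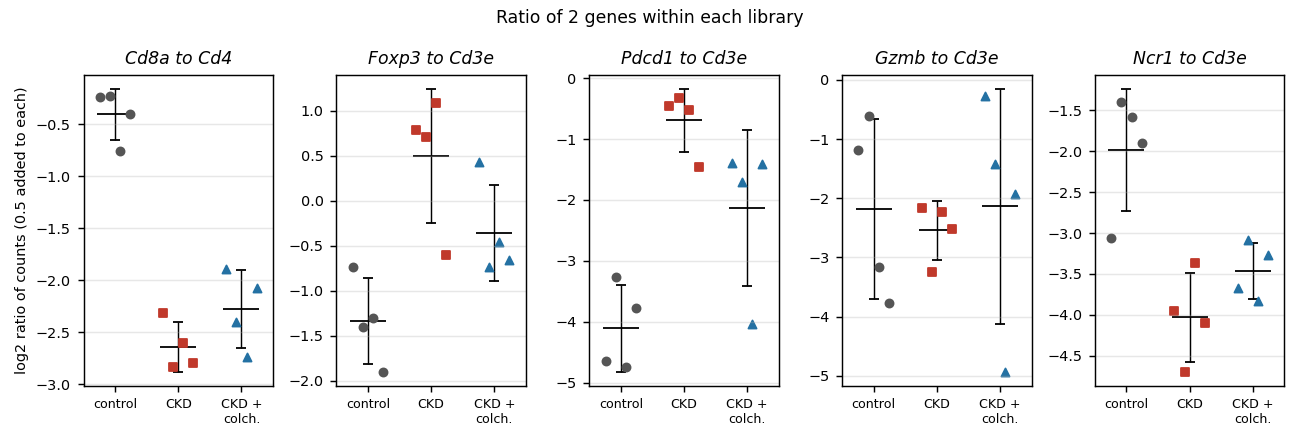
Log2 ratio of the counts of 2 genes in each library, with 0.5 added to each count; horizontal bars are group means and vertical bars SD over 4 libraries. Between control and CKD the points do not overlap for Cd8a to Cd4, Foxp3 to Cd3e, Pdcd1 to Cd3e and Ncr1 to Cd3e, and they overlap for Gzmb to Cd3e.

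Of 7 surface and costimulatory receptors 6 rose in CKD. Cd2, an adhesion receptor of T and NK cells, stood at 0.758, 0.662, 0.685 and 1.04 CPM in the control libraries, 2.43, 3.45, 2.74 and 2.25 CPM in CKD and 2.06, 1.13, 1.39 and 2.3 CPM with colchicine, a log2 fold change of 1.78 ± 0.28 in CKD. Cd5, which tempers receptor signalling, stood at 0.0583, 0.458, 0.274 and 0.232 CPM in the control libraries, 1.13, 2.24, 1.7 and 1.31 CPM in CKD and 1.22, 0.518, 0.705 and 0.626 CPM with colchicine, and Cd6, a related scavenger-type receptor, at 0.117, 0.255, 0.205 and 0.29 CPM in the control libraries, 2.46, 2.78, 1.43 and 1.4 CPM in CKD and 1.68, 0.824, 0.705 and 1.32 CPM with colchicine. CKD lay above control in every library for both genes, by 2.6 ± 0.46 for Cd5 and 3.18 ± 0.43 for Cd6 on the log2 scale. Cd28, the main costimulatory receptor, stood at 0.466, 0.0509, 0.753 and 0.29 CPM in the control libraries, 1.09, 1.67, 1.07 and 1.26 CPM in CKD and 1.28, 0.377, 0.564 and 0.939 CPM with colchicine, with a log2 fold change of 1.75 ± 0.52. Cd226, an activating receptor that shares its ligands with TIGIT, stood at 0.408, 0.255, 0.616 and 0.174 CPM in the control libraries, 1.55, 0.997, 0.923 and 1.14 CPM in CKD and 0.598, 0.494, 0.201 and 0.591 CPM with colchicine, and was higher in CKD by 1.68 ± 0.43. Cd27, a costimulatory receptor of the TNF receptor family, overlapped between the groups and missed the threshold at 1 ± 0.44 (edgeR adjusted p = 0.0559). It passed without control replicate 2 (adjusted p = 0.0225), and also with DESeq2, limma-voom, upper-quartile scaling, library totals only, the stricter count filter and the fit to 8 libraries (adjusted p between 0.000591 and 0.0494).

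Thy1 moved with fibroblast genes as well as T cell genes. It stood at 3.61, 3.82, 4.93 and 3.01 CPM in the control libraries, 83.9, 73.8, 90.2 and 72.5 CPM in CKD and 112, 105, 91.7 and 99.6 CPM with colchicine, a log2 fold change of 4.39 ± 0.13 in CKD. Thy1 is carried by mouse T cells and by many fibroblasts. The 8 fibroblast markers of the lists used here, Thy1 among them, all rose, and their summed level went from 408 to 493 CPM in control to 3350 to 3970 CPM in CKD. The part of fibroblasts in the Thy1 level was not tested.

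The 3 genes of signalling next to the receptor rose together. Lck, the kinase bound to CD4 and CD8, stood at 1.11, 1.68, 1.1 and 1.28 CPM in the control libraries, 5.73, 6.7, 4.94 and 5.2 CPM in CKD and 5.87, 5.46, 4.79 and 5.36 CPM with colchicine, a log2 fold change of 2.11 ± 0.17 in CKD. Zap70, which docks on the phosphorylated CD3 and zeta chains, stood at 0.233, 0.102, 0.342 and 0.522 CPM in the control libraries, 1.51, 1.96, 1.25 and 1.37 CPM in CKD and 1.09, 0.942, 0.645 and 1.01 CPM with colchicine. Skap1, an adaptor that links the receptor to integrins, stood at 0.641, 0.611, 0.685 and 1.04 CPM in the control libraries, 2.57, 2.32, 2.05 and 1.34 CPM in CKD and 2.09, 2.17, 1.91 and 2.02 CPM with colchicine. No CKD library overlapped with control for Zap70 or Skap1, with log2 fold changes of 2.35 ± 0.39 and 1.47 ± 0.26.

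The lineage and memory genes diverged. Il7r stood at 0.117, 0.306, 0.411 and 0.464 CPM in the control libraries, 16.3, 22.4, 19.7 and 15.3 CPM in CKD and 11.3, 10, 9.73 and 8.8 CPM with colchicine. Control libraries held 2 to 8 Il7r counts and CKD libraries 464 to 662, and its log2 fold change was 5.82 ± 0.23. Tcf7, a factor of naive and memory T cells, stood at 2.8, 2.34, 3.77 and 3.88 CPM in the control libraries, 16.3, 15.3, 15.4 and 14.4 CPM in CKD and 19.5, 16.2, 14.4 and 14.1 CPM with colchicine, with all adenine libraries above control and a log2 fold change of 2.27 ± 0.15. Its mean was 15.4 CPM in CKD and 16 CPM with colchicine. The 4 receptor complex genes together averaged 9.62 CPM in CKD and 6.23 CPM with colchicine. The part of T cells in the Tcf7 level was not tested. Bcl11b, a factor required for T cell identity that other cell types also express, was the member that fell. It stood at 8.98, 7.74, 7.87 and 7.83 CPM in the control libraries, 3.41, 5.13, 3.78 and 4.18 CPM in CKD and 3.12, 2.26, 3.3 and 3.44 CPM with colchicine, a log2 fold change of -0.97 ± 0.16 (edgeR adjusted p = 6.52e-05). Scaled by library totals only, Bcl11b stood at 0.04 and was not called (adjusted p = 0.823), while DESeq2 and upper-quartile scaling gave -0.96 and -0.84 (adjusted p = 4.92e-08 and 0.000306).

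Genes of regulatory T cells rose. Foxp3 stood at 0.408, 0.255, 0.342 and 0.29 CPM in the control libraries, 4.22, 5.27, 4.91 and 2.13 CPM in CKD and 3.02, 1.25, 1.55 and 1.36 CPM with colchicine. The CKD libraries lay above the control libraries throughout, by 3.67 ± 0.41 on the log2 scale, though CKD replicate 4 held less than the other 3. Il2ra, the high-affinity interleukin 2 receptor chain carried by regulatory and activated T cells, stood at 0.175, 0.357, 0.685 and 0.58 CPM in the control libraries, 2.95, 3.6, 3.87 and 2.75 CPM in CKD and 3.67, 1.46, 1.43 and 1.32 CPM with colchicine, a log2 fold change of 2.89 ± 0.42. Ikzf2, which encodes Helios and was already at several CPM in control, stood at 5.07, 5.5, 4.38 and 3.42 CPM in the control libraries, 5.63, 8.26, 6.31 and 7.56 CPM in CKD and 8.15, 7.44, 9 and 8.66 CPM with colchicine. Its change was the smallest of the members that rose, at 0.59 ± 0.16 (edgeR adjusted p = 0.00418).

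All 6 checkpoint and activation receptors rose in CKD. Control means were very low for Pdcd1, Ctla4 and Tigit, at 0.0272, 0.0417 and 0.0672 CPM. Those of Lag3, Icos and Havcr2 were 0.518, 0.556 and 0.774 CPM. Pdcd1, which encodes PD-1, stood at 0, 0.0509, 0 and 0.058 CPM in the control libraries, 1.76, 2.56, 1.58 and 1.17 CPM in CKD and 0.842, 0.636, 0.121 and 0.8 CPM with colchicine. Control held 2 Pdcd1 counts in all and CKD 215, a scaled ratio of 59.3 with a 95% exact binomial interval of 16.2 to 493 that covers counting error only. Ctla4 stood at 0, 0.0509, 0 and 0.116 CPM in the control libraries, 1.58, 2.35, 2.5 and 0.935 CPM in CKD and 1.22, 0.353, 0.342 and 0.87 CPM with colchicine. Control held 3 Ctla4 counts and CKD 227, a ratio of 41.8 with an interval of 14.1 to 204. Both were called, with edgeR adjusted p-values of 9.79e-06 for Pdcd1 and 1.46e-05 for Ctla4. Without control replicate 4, which held 2 of the 3 Ctla4 control counts, the log2 fold change of Ctla4 was 6.3, against 5.27.

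Havcr2, which encodes TIM-3 and is also carried by macrophages and dendritic cells, stood at 0.583, 1.22, 0.479 and 0.812 CPM in the control libraries, 8.2, 8.41, 8.45 and 7.77 CPM in CKD and 8.04, 4.36, 4.85 and 4.42 CPM with colchicine, a log2 fold change of 3.37 ± 0.27. The 12 macrophage markers all rose as well, from a summed 176 to 193 CPM in control to 1240 to 1270 CPM in CKD, and the part of macrophages in the Havcr2 level was not tested. Lag3, a receptor for MHC class II, stood at 1.05, 0.255, 0.479 and 0.29 CPM in the control libraries, 3.17, 4.42, 3.54 and 3.97 CPM in CKD and 2.58, 3.77, 4.39 and 4.49 CPM with colchicine. Its log2 fold change was 2.87 ± 0.34, and 3.49 without control replicate 1, which was the highest control library. Icos, a costimulator of activated and follicular T cells, stood at 0.408, 0.611, 0.685 and 0.522 CPM in the control libraries, 1.51, 1.64, 1.64 and 1.75 CPM in CKD and 1.41, 1.04, 1.51 and 1.5 CPM with colchicine, with a log2 fold change of 1.55 ± 0.25. Tigit stood at 0, 0.153, 0 and 0.116 CPM in the control libraries, 0.598, 0.57, 0.447 and 0.38 CPM in CKD and 0.733, 0.0471, 0.544 and 0.174 CPM with colchicine. It rested on 5 control and 61 CKD counts, with a log2 fold change of 2.71 ± 0.88, and of 3.48 without control replicate 2 (edgeR adjusted p = 0.0132 and 0.0145).

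NK and cytotoxic genes were split. Klrb1b, a lectin-like receptor of the NK cell complex with close relatives, among which the split of reads is uncertain, stood at 0.466, 0.357, 0.411 and 0.754 CPM in the control libraries, 3.24, 2.89, 3.99 and 4.82 CPM in CKD and 1.47, 0.777, 1.15 and 1.01 CPM with colchicine. Klrk1, which encodes the activating receptor NKG2D of NK and CD8 T cells, stood at 0.583, 0.815, 0.616 and 0.58 CPM in the control libraries, 1.72, 1.96, 2.05 and 1.72 CPM in CKD and 1.28, 0.565, 1.07 and 1.43 CPM with colchicine. Both rose in CKD with no overlap, by 2.9 ± 0.3 for Klrb1b and 1.51 ± 0.3 for Klrk1 on the log2 scale. Of the effector genes, Gzmb and Nkg7 did not pass the test, and Gzma and Prf1 were not tested in this fit. Gzmb, a granzyme that triggers apoptosis of target cells, stood at 0.291, 0.458, 0.0685 and 0.058 CPM in the control libraries, 0.528, 0.321, 0.476 and 0.555 CPM in CKD and 1.85, 0.777, 0.0604 and 0.557 CPM with colchicine, and its log2 fold change of 1.03 ± 0.84 missed the threshold (edgeR adjusted p = 0.296). Without control replicate 2 that value was 1.7 (adjusted p = 0.159). Nkg7, a granule membrane gene, was at 0.38 ± 0.54 (adjusted p = 0.557) and Eomes, a T-box factor of NK and memory CD8 T cells, at 0.27 ± 0.47 (adjusted p = 0.635).

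Tbx21, the T-box factor of type 1 responses, was at 1.64 ± 0.71 and missed the threshold (edgeR adjusted p = 0.0541). It passed without control replicate 2, CKD replicate 3 or colchicine replicate 1 (adjusted p between 0.0362 and 0.046). Gzma, Prf1 and Ncr1 were left out by the filter. Prf1, the perforin gene, stood at 0.291, 0.255, 0.411 and 0.232 CPM in the control libraries, 0.246, 0.178, 0.208 and 0.0876 CPM in CKD and 0.489, 0.377, 0.0403 and 0.0696 CPM with colchicine. Ncr1, the NK receptor NKp46, stood at 0.0583, 0.255, 0.274 and 0.29 CPM in the control libraries, 0.141, 0.107, 0.208 and 0.175 CPM in CKD and 0.163, 0.235, 0.141 and 0.209 CPM with colchicine, and Gzma at 0.0583, 0.255, 0.205 and 0.348 CPM in the control libraries, 0.246, 0.107, 0.0893 and 0.0876 CPM in CKD and 0.489, 0.259, 0.0201 and 0.487 CPM with colchicine. The 3 groups overlapped for each of these genes, at 18 counts or fewer per library. In the fit without a count filter, their log2 fold changes between CKD and control were -0.65 for Prf1, -0.39 for Ncr1 and -0.66 for Gzma, and none passed (edgeR adjusted p = 0.528, 0.691 and 0.542). Scaled by library totals only, Nkg7, Gzmb, Eomes and Tbx21 passed as higher in CKD, and Tbx21 also passed with upper-quartile scaling (edgeR adjusted p = 0.0354).

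Related genes outside the 38 are given from lists, of which the T cell receptor chain genes Trac, Trbc1 and Trbc2 are not analysed here. Of 18 tested genes of T cell receptor signalling, 14 rose and 1 fell in CKD, with a median log2 fold change of 1.75. The shares over all genes tested, 34.1% higher and 33.4% lower, stand beside this and the other list counts in CKD. The adaptor Fyb was higher by 3.49 ± 0.09 and the exchange factor Vav1 by 3.76 ± 0.13, both of which myeloid cells also use. Of 18 chemokine and homing genes, 12 rose and none fell, with a median of 1.67. Cxcl16 rose by 1.67 ± 0.07 and the B cell chemokine Cxcl13 by 3.26 ± 0.24 on the log2 scale. The interferon-induced Cxcl10 rose by 1.51 ± 0.31 and Ccl5 by 2.14 ± 0.24, while Cxcl9 stood at 0.26 ± 0.31 (edgeR adjusted p = 0.478). Of 12 tested cytokine and receptor genes 7 rose and 1 fell, with Il18r1 at 3.95 ± 0.16 and Ifngr1 at 1.84 ± 0.09. Ifng itself held no count in control and 7 counts over the 4 CKD libraries, and it was not tested.

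Ligands of the checkpoint and costimulatory receptors rose more often than they fell, at 10 and 2 of 12. Cd86, a ligand of CD28 and CTLA-4, rose by 3.58 ± 0.18, Cd48 by 3.42 ± 0.19 and Cd274, which encodes PD-L1, by 0.96 ± 0.15 on the log2 scale. Of 16 lineage factors 11 rose and 3 fell, with Runx1 at 4.18 ± 0.19 and Runx3 at 3.10 ± 0.22. Of 12 tested genes in a list of NK receptors, their ligands and granule genes, 8 rose and 2 fell. The NK markers Klrb1c and Klrd1 rose by 1.63 ± 0.5 and 1.75 ± 0.35, while the receptor gene Klrc1 did not pass at 0.62 ± 0.56. The protease inhibitor Serpinb9 stood at 1.15 ± 0.13. The granule protease gene Ctsw rose by 1.55 ± 0.47 (edgeR adjusted p = 0.00888), while Fasl did not pass at 0.85 ± 0.65 (adjusted p = 0.263). The 2 that fell were the lysosomal Lamp1 at -0.70 ± 0.08 and Rae1 at -0.35 ± 0.07, and neither is an NK receptor or a ligand of one. The symbol Rae1 stands for an RNA export factor, while the ligand gene Raet1e rose by 3.19 ± 0.38.

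Markers of other leukocytes moved with the T cell genes. The 7 tested neutrophil markers rose, from a summed 2.33 to 4.93 CPM in control to 93.6 to 126 CPM in CKD. Of 9 dendritic cell markers 8 rose, from a summed 16.1 to 18.5 CPM to 78.8 to 98.6 CPM. B and plasma cell markers did not move together, with 3 of 7 higher and Pax5 lower by -2.08 ± 0.35. Sdc1, which tubule and other epithelial cells also express, was higher by 2.5 ± 0.07. The 8 proximal tubule markers fell, from a summed 9520 to 10300 CPM to 649 to 896 CPM. The part of these shifts in the T cell gene levels was not tested.

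The comparison of colchicine with CKD asks how the same genes differed when adenine-fed mice also received colchicine. Among the 35 tested members 8 were lower with colchicine and 1 was higher, against 8.24 and 6.79% of all genes tested. The 8 were Klrb1b, Pdcd1, Ctla4, Cd226, Foxp3, Il7r, Cd3g and Cd4, and the 1 was Thy1. The median log2 fold change over the 35 was -0.52, against 0.03 over all genes. The groups did not overlap for 10 members that were lower and 1 that was higher, against 9.29 and 8.92% of all genes.

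The 4 colchicine libraries were not alike for these genes. Colchicine replicate 1, the library labelled 2% adenine as in CKD, was the highest of the 4 for 27 of the 38 members, while replicates 2 and 3 were the lowest for 16 and 17. Without replicate 1 the count of lower members was 16, and without other single libraries it ranged from 3 to 8, the lowest being without CKD replicate 1, CKD replicate 2 or colchicine replicate 2. Without CKD replicate 3 or colchicine replicate 3 it was 4. The counts over all genes moved the same way: 1470 genes were lower in the full fit, 3519 without colchicine replicate 1 and 573 without CKD replicate 3. When the labelled adenine percentage entered the model as a slope and the difference was read at 2%, 2 members, Klrb1b and Il7r, were lower and none was higher, and over all genes 616 were lower.

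**Figure D4:**
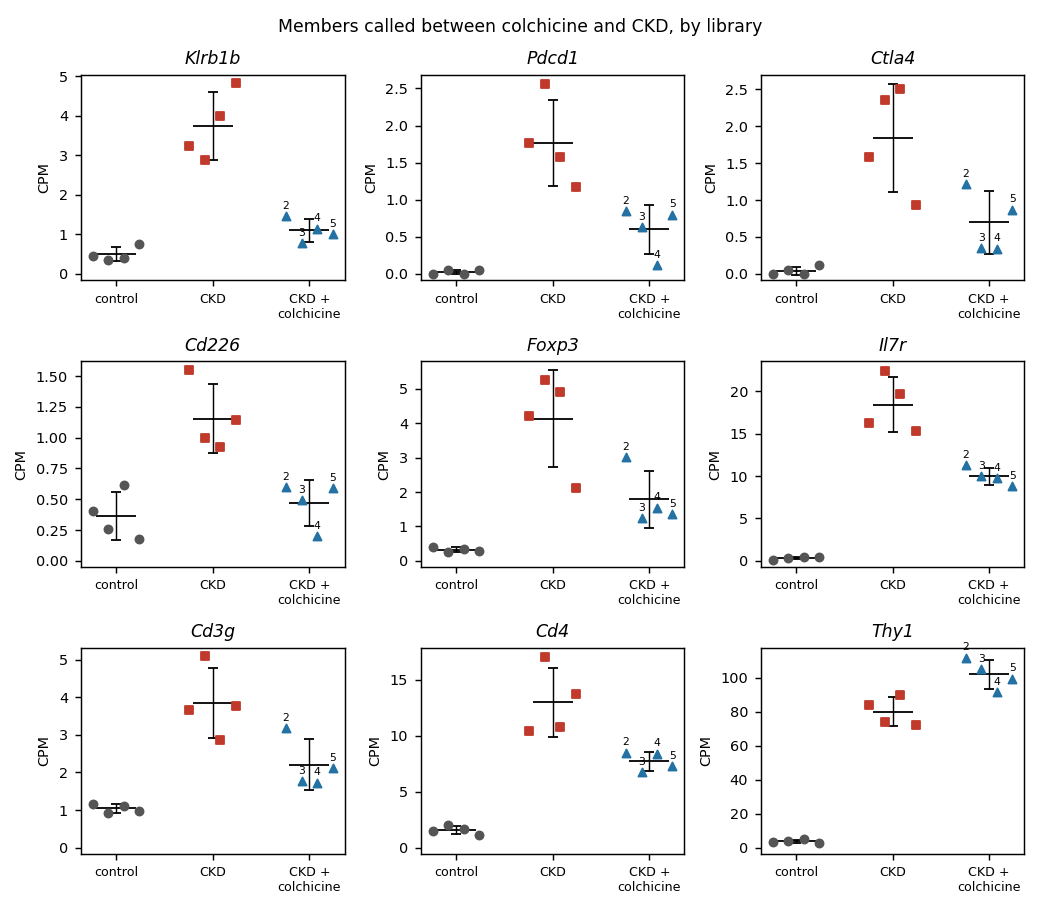
CPM in each library of the 9 members called between colchicine and CKD; horizontal bars are group means, vertical bars SD over 4 libraries, and the digit at each colchicine point is its labelled adenine percentage. All 4 colchicine points lie under all CKD points for Klrb1b, Pdcd1, Cd226, Il7r and Cd4, they overlap for Ctla4, Foxp3 and Cd3g, and they lie above for Thy1.

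Klrb1b, Il7r and Cd4 were called in each fit that left out 1 library. Klrb1b fell from 3.73 ± 0.859 CPM in CKD to 1.1 ± 0.288 CPM with colchicine (SD, n = 4), and its colchicine libraries, at 1.47, 0.777, 1.15 and 1.01 CPM, lay between CKD and control. Its log2 fold change was -1.76 ± 0.25 (edgeR adjusted p = 0.00114). Il7r was lower at 9.97 ± 1.03 CPM, against 18.4 ± 3.22 CPM in CKD, by -0.89 ± 0.14 on the log2 scale (adjusted p = 0.00247). Cd4 was lower at 7.73 ± 0.849 CPM, against 13 ± 3.04 CPM, by -0.75 ± 0.16 (adjusted p = 0.00984). With colchicine replicate 1 as the only colchicine library, Klrb1b, Il7r and Cd4 stood at -1.36, -0.71 and -0.62, values of 1 library from which no call is read.

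The receptor complex and Foxp3 were less stable. Cd3g was lower by -0.81 ± 0.23 (edgeR adjusted p = 0.0297), with colchicine replicate 1 inside the CKD range. That call was lost without CKD replicate 1, 2 or 4 or colchicine replicate 2, 3 or 4 (adjusted p between 0.0581 and 0.0991). Cd3d, Cd247 and Cd3e stood at -0.82 ± 0.29, -0.52 ± 0.33 and -0.37 ± 0.19 and did not pass. Foxp3 was lower by -1.2 ± 0.31 (adjusted p = 0.0205), with colchicine replicate 1 at 3.02 CPM and the other 3 at 1.25 to 1.55 CPM. It was lost without CKD replicate 1, 2 or 3 or colchicine replicate 2 or 3 (adjusted p between 0.0501 and 0.0726). Il2ra showed the same split, at 3.67 CPM in replicate 1 and 1.32 to 1.46 CPM in the other 3, and did not pass at -0.74 ± 0.33 (adjusted p = 0.135).

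Checkpoint genes differed among themselves. Pdcd1 was lower by -1.58 ± 0.45 (edgeR adjusted p = 0.0328) and Ctla4 by -1.42 ± 0.46 (adjusted p = 0.0493). The Pdcd1 call was lost without CKD replicate 1, 2 or 3 or colchicine replicate 2 (adjusted p between 0.0715 and 0.0981). The Ctla4 call was lost without any 1 of 9 libraries, control replicate 4, CKD replicate 4 and colchicine replicate 1 being the others (adjusted p between 0.0516 and 0.152). Lag3 stood at 0.01 ± 0.26, Icos at -0.26 ± 0.21 and Tigit at -0.38 ± 0.6, and none passed. Havcr2 was at -0.6 ± 0.21 (adjusted p = 0.0626), with replicate 1 at 8.04 CPM, inside the CKD range, and the other 3 between 4.36 and 4.85 CPM. Cd226 was lower by -1.31 ± 0.38 (adjusted p = 0.0339), and this call was lost without any 1 CKD library or colchicine replicate 2 or 3 (adjusted p between 0.0588 and 0.103).

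Without colchicine replicate 1, 8 further members passed as lower: Cd3d, Cd2, Cd5, Cd6, Bcl11b, Il2ra, Havcr2 and Klrk1 (edgeR adjusted p between 0.000923 and 0.0446). Cd5 also passed without control replicate 1 (adjusted p = 0.0481) and Klrk1 without colchicine replicate 4 (adjusted p = 0.0479). Lck, Skap1 and Tcf7 stood near 0, at -0.07 ± 0.15, -0.01 ± 0.22 and 0.06 ± 0.13. The cytotoxic coreceptors Cd8a and Cd8b1 stood at -0.33 ± 0.25 and 0.07 ± 0.37 and overlapped with CKD. Gzmb spread most among the colchicine libraries, from 0.0604 CPM in replicate 3 to 1.85 CPM in replicate 1, and stood at 0.76 ± 0.67 (adjusted p = 0.444), or -0.06 without replicate 1. The members not named here, Cd27, Cd28, Zap70, Ikzf2, Nkg7, Eomes and Tbx21, had log2 fold changes between -0.73 and 0.26, and none passed. None of the 5 ratios passed between colchicine and CKD. The ratio of Cd8a to Cd4 was 0.37 higher and that of Foxp3 to Cd3e 0.86 lower, from 0.5 to -0.36 (exact permutation p = 0.171 and 0.0857, adjusted 0.214 and 0.129).

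Thy1 was the member that was higher with colchicine, by 0.35 ± 0.1 (edgeR adjusted p = 0.0359). The call was lost without control replicate 2, CKD replicate 1, 2 or 4 or colchicine replicate 2 or 4 (adjusted p between 0.0513 and 0.103). Of the 8 fibroblast markers 4 were higher with colchicine and none lower, Thy1 being 1 of the 4, with Col1a1 at 0.52 ± 0.10. Their sum was 4170 to 5350 CPM, against 3350 to 3970 CPM in CKD. The part of fibroblasts in the Thy1 difference was not tested.

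In the related lists, 6 of 18 genes of T cell receptor signalling were lower with colchicine and none higher, with Fyb at -0.66 ± 0.08 and the leukocyte phosphatase gene Ptprc, which encodes CD45, at -0.88 ± 0.14. Over all genes tested 8.24% were lower and 6.79% higher, and a count of 1 among 12 or 16 genes below lies close to these shares. Of 18 chemokine and homing genes 3 were lower, with Cxcl13 at -1.65 ± 0.20 and Ccr7, the lymph node homing receptor, at -1.04 ± 0.22. Cxcl9, Cxcl10 and Ccl5 stood at 0.57, 0.76 and -0.12 and did not pass (edgeR adjusted p = 0.195, 0.0851 and 0.706). Of 12 cytokine and receptor genes 1, Ifngr1, was lower at -0.37 ± 0.09, while Il12b stood at -1.30 ± 0.45 (adjusted p = 0.065). Of 16 lineage factors 3 were lower and 1 higher, with Ikzf1 at -0.64 ± 0.17 and Gata3, the factor of type 2 helper cells that tubules also express, at 0.44 ± 0.11. Of 12 genes in the list of NK receptors, their ligands and granule genes, only the lysosomal Lamp1 was lower, at -0.33 ± 0.08. The receptor gene Klrg1 stood at -1.19 ± 0.53 (adjusted p = 0.137). Among costimulatory ligands 3 of 12 were lower and 1 higher, with Cd86 at -0.70 ± 0.14 and Cd48 at -0.67 ± 0.15. Cd274 stood at 0.10 ± 0.14 and did not pass. Of the 9 dendritic cell markers 6 were lower and none higher, with the growth factor receptor Flt3 at -1.67 ± 0.23 and Xcr1 at -1.71 ± 0.35. Their sum was 47.4 to 77.2 CPM, against 78.8 to 98.6 CPM in CKD. Of 12 macrophage markers 4 were lower, with Csf1r at -0.51 ± 0.09. The part of these cells in the differences of Cd4, Il7r and Havcr2 was not tested.

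Against control, 25 of the 35 members were higher with colchicine and 1, Bcl11b, was lower, against 37.1 and 33.4% of all genes. The groups did not overlap for 22 members that were higher and 1 that was lower, against 32.2 and 30.3% of all genes. This comparison shares its libraries with the other 2. Thy1 was at 4.74 ± 0.13, Il7r at 4.94 ± 0.24, Foxp3 at 2.46 ± 0.42 and Cd4 at 2.27 ± 0.20 on the log2 scale, and the colchicine libraries lay above control without overlap for each. Pdcd1 held 87 counts with colchicine against 2 in control, a ratio of 18.9 with a 95% interval of 5.08 to 159. Ctla4 held 102 against 3, a ratio of 14.8 with an interval of 4.92 to 72.9. Cd226, called in both other comparisons, stood at 0.38 ± 0.45 and did not pass (edgeR adjusted p = 0.463). Cd8a and Cd247 likewise did not pass, at 0.41 ± 0.27 and 0.47 ± 0.36.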

How the data were processed

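Bulk RNA-seq of 12 mouse kidney libraries was analysed. Per the labels' protocols, the authors used RNAiso Plus for extraction and the CORALL RNA-seq V2 kit for libraries. The submitters' processing notes name fastp, STAR, Salmon and GRCm39, without versions or annotation. The deposited values are whole numbers per gene symbol, taken as the authors' estimated counts (expected counts), so no further rounding was needed. Groups and replicate numbers come from the titles.

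The tests used edgeR 4.0.16 (R 4.3.3). Of 40213 genes, 17841 passed filterByExpr at its minimum count of 10, and TMM gave the scaling. All 12 libraries entered 1 quasi-likelihood fit, robust, of 3 group means, with two-sided F tests and Benjamini-Hochberg adjustment over all genes tested. The standard error is the log2 fold change divided by the root of F. Ratios used counts with 0.5 added. The model was tested on simulated counts in which few genes changed and the groups did not differ in composition. That test did not cover the shift in TMM factors between control and the adenine groups.

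The 38 members and the lists were chosen with earlier results of these data known. Members called in CKD against control or colchicine against CKD are given by library, and of each list the 2 genes with the smallest p are examples, with Ifng, Cxcl9, Cxcl10, Ccl5 and Cd274 given whatever their result. Chemokine, cytokine, NK receptor, kidney segment and leukocyte lists are described by their counts. Other genes named outside the 38 were chosen after their values were seen. Alternatives were DESeq2 1.42.0, limma-voom (limma 3.58.1), other scaling, other filters, fewer libraries, the replicate number as a block and the labelled adenine percentage. Promoter windows are from RefSeq on GRCm38.p6.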

Additional observations from a re-analysis of the deposited data

Results flagged for a closer look

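In each group of 4 libraries the highest or lowest library was compared with the others for the 38 genes, by the gap to its nearest neighbour as a share of the group's range, and 8 of 114 groups had a library apart. Chance marks about 1 group in 20. With colchicine, replicate 1 was apart for Il2ra (share 0.941, 3.67 CPM against 1.32 to 1.46 CPM) and for Havcr2 (share 0.865, 8.04 CPM against 4.36 to 4.85 CPM). In CKD, replicate 2 was apart for Cd27 (share 0.947, 1.6 CPM against 0.774 to 0.818 CPM) and replicate 1 for Gzma (share 0.879, 0.246 CPM against 0.0876 to 0.107 CPM). In control, replicate 1 was apart for Bcl11b (share 0.893, 8.98 CPM against 7.74 to 7.87 CPM) and for Ncr1 (share 0.848, 0.0583 CPM against 0.255 to 0.29 CPM). Control replicate 2 was apart for Klrk1 (share 0.845, 0.815 CPM against 0.58 to 0.616 CPM) and control replicate 4 for Skap1 (share 0.83, 1.04 CPM against 0.611 to 0.685 CPM).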

How the results depend on the processing

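For CKD against control, 27 to 34 members were higher across the alternatives, with 27 to 30 when 1 library was left out, and 1 was lower in each alternative except library totals only, where none was lower. Library totals only moved the median log2 fold change of all genes to 1.05, against 0.04, and gave 13197 genes higher and 1850 lower, against 6076 and 5952. Bcl11b stood at 0.04 there and was not called (edgeR adjusted p = 0.823), so its sign changed without a call in the other direction. For colchicine against CKD the lower count was 8, against 14 by DESeq2 and 14 by limma-voom, 5 when the fit held the 8 libraries compared, 2 with the labelled adenine slope, and 3 to 16 when 1 library was left out. Over all genes the lower counts were 1470, against 2258, 1933, 1071 and 616 in the first 4 of these alternatives and 3519 without colchicine replicate 1, so members and all genes moved together. The higher count was 1, against 0 with the slope and 0 to 1 when 1 library was left out. With replicate 1 as the only colchicine library, an alternative chosen after seeing the data, 1 was lower and 2 higher; the lone library was assumed to vary like the other groups, so these counts support no call. Leaving out mitochondrial transcripts, also added later, gave 8 and 1. The replicate block gave 6 lower and 0 higher, with edgeR adjusted p-values of 0.0512 for Thy1, 0.0888 for Ctla4 and 0.0589 for Cd226. Same-numbered libraries correlated between -0.28 and 0.19, so the numbers were not taken to pair animals. With the numbers as pairs, the smallest exact sign-flip p is 0.125, and the ratio differences keep their values, for example -2.24 for Cd8a to Cd4. For colchicine against control, 22 to 34 were higher and 1 lower across the alternatives, with 23 to 26 and 1 when 1 library was left out.

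No ratio passed after adjustment, with 0.5 or 2 counts added. With 2 added, the differences between CKD and control were -2.24 for Cd8a to Cd4, 1.64 for Foxp3 to Cd3e, 2.07 for Pdcd1 to Cd3e, -0.74 for Gzmb to Cd3e and -2.08 for Ncr1 to Cd3e. When 1 library was left out, the differences between CKD and control ranged from -2.35 to -2.17 for Cd8a to Cd4, 1.63 to 2.20 for Foxp3 to Cd3e, 3.20 to 3.70 for Pdcd1 to Cd3e, -0.89 to 0.17 for Gzmb to Cd3e and -2.40 to -1.82 for Ncr1 to Cd3e. Ncr1, Gzma and Prf1 held 18 counts or fewer per library, which limits the precision of their values.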
